A study of Mus musculus with 8 samples.

Results

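The coenzyme Q synthesis and binding genes were followed in a salivary gland, the submandibular gland, of male mice of 2 genotypes. The set held 10 genes taken by name: Coq10b, Coq10a, Coq2, Coq3, Coq4, Coq5, Coq6, Coq7, Coq9 and Pdss1. All 10 were among the 54838 genes of the count tables, and all 10 passed the expression filter that left 19358 genes for testing. Coq10b was chosen by its measured values, because the same comparison of WT and Dp16 in these libraries had shown it lower in Dp16. Its difference between the genotypes is therefore a description with no test. The other 9 were listed for their role in the pathway, with earlier results of these data known.

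Wild-type mice (WT) were C57BL/6J, and Dp16 mice were B6.129S7-Dp(16Lipi-Zbtb21)1Yey/J, a Down syndrome model with an added copy of the part of chromosome 16 between Lipi and Zbtb21. The duplication is carried in the germline and is not limited to a cell type. Both lines came from Jackson Laboratory. Each group had 4 libraries of total RNA depleted of ribosomal RNA, and neither group had a treatment in the labels. The age of the mice is not given in the sources used here. Nothing says which libraries came from separate animals, so p-values measure the spread between these libraries. None of the 10 genes lies on chromosome 16, so each had its usual copy number in both groups.

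Coenzyme Q is a lipid of the inner mitochondrial membrane that carries electrons from complexes I and II and from several dehydrogenases to complex III. Cells build it by joining a long isoprenoid tail, made from mevalonate products, to a ring derived from 4-hydroxybenzoate, and then decorating the ring in a complex of COQ proteins. COQ10A and COQ10B are START-domain proteins that bind the finished lipid and are needed for its normal use in respiration. Salivary gland cells are rich in mitochondria, above all the duct cells that move ions against gradients.

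Coq10b (chromosome 1, 55052770 to 55072702 on GRCm38, plus strand, protein-coding) was the gene of the set with the largest difference. Levels below are TMM-scaled CPM, the reads of a gene brought to a common library size. Coq10b was at 13, 19.3, 19.5 and 18.5 CPM in WT replicates 1 to 4. It was at 9.38, 8.11, 7.85 and 9.05 CPM in Dp16 replicates 1 to 4. The groups did not overlap, the 4 Dp16 libraries lay close together, and WT replicate 1 stood below the other WT libraries. The mean was 17.6 ± 3.09 CPM for WT against 8.60 ± 0.731 for Dp16 (SD, n = 4 each). The log2 fold change was -1.03 (SE 0.138), so that the Dp16 level was 48.9% of the WT level. These values rest on 846 to 2130 reads per library. Leaving out WT replicate 1, the lowest WT library, gave -1.16.

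Coq10a (chromosome 10, 128363100 to 128368997, minus strand, protein-coding), the paralog of Coq10b, showed no such gap. It was at 7.18, 6.40, 8.35 and 7.19 CPM in the WT libraries and at 6.95, 8, 6.42 and 6.49 in the Dp16 libraries. The groups overlapped over nearly their whole range. The log2 fold change was -0.06 (SE 0.115, 95% confidence interval -0.32 to 0.19, edgeR adjusted p = 0.755). The ratio of Coq10b to Coq10a per kb of exon was 0.968, 1.61, 1.25 and 1.38 in the WT libraries and 0.722, 0.543, 0.655 and 0.747 in the Dp16 libraries. Per length, Coq10b was thus above Coq10a in 3 of 4 WT libraries and below it in 4 of 4 Dp16 libraries. This order depends on the annotated exon lengths. In CPM without length, Coq10b was above Coq10a in every library. That ratio was 1.81, 3.01, 2.34 and 2.57 in WT and 1.35, 1.01, 1.22 and 1.39 in Dp16.

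**Figure D1:**
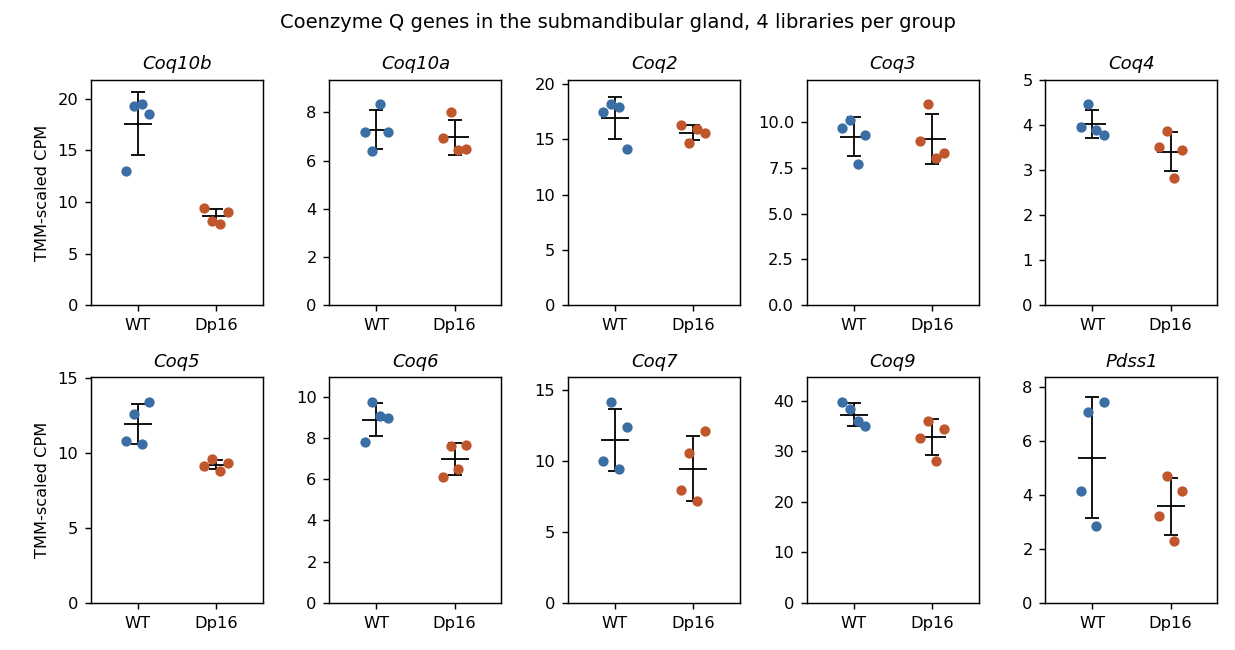
TMM-scaled CPM of the 10 genes in each library, with points for WT replicates 1 to 4 and Dp16 replicates 1 to 4 from left to right and black bars for the mean and SD. The Coq10b panel shows all 4 Dp16 libraries at or below 9.38 CPM and all 4 WT libraries at or above 13, while in the Coq10a panel the groups overlap.

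The sequence before 1 RefSeq start site of each paralog, the one nearest to the annotated gene start, is shown because these 2 genes, close in protein function, had such unlike values, -1.03 and -0.06. The stretches are from RefSeq on GRCm38.p6 and run 5′ to 3′ on the strand of the gene, chr1:55052520-55052769 on the plus strand for Coq10b and chr10:128368981-128369230 on the minus strand for Coq10a. Capitals mark matches on either strand to TGACG, the core of the element bound by CREB and ATF factors, and to CACGTG, an E-box.
Coq10b: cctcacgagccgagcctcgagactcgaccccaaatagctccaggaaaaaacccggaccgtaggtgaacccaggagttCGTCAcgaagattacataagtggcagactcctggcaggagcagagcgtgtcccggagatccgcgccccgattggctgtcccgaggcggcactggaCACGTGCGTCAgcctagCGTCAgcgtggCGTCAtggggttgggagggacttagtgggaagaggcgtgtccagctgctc
Coq10a: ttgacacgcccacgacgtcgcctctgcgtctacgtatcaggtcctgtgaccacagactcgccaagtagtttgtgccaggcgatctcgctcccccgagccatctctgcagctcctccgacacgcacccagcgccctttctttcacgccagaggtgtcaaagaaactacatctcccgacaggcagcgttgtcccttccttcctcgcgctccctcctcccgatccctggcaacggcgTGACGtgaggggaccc

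Coq10b held TGACG 4 times, each as its reverse complement, with first bases at -173, -72, -61 and -50 from the start site. The last 3 begin 11 bases apart. CACGTG begins at -78 and ends directly before the second TGACG match, without overlap. Coq10a held TGACG 1 time, at -16, and no CACGTG. RefSeq lists a second Coq10a start 1040 bases before the annotated gene start, and its window held none of the motifs searched. Of 32851 RefSeq windows of 300 bases (250 before to 50 after a start), 20.8% held TGACG at least 1 time, 0.231% held it 4 or more times, and 7.15% held CACGTG. The motifs TGACGTCA (1.79% of windows), GAANNTTC (7.86%) and CCGGAAG (8.86%) were in none of the windows of Coq10b and Coq10a. CCAAT, which 37.4% of windows held, was in the Coq10b window 2 times and in neither of Coq10a. The limit of 4 in the share of windows was the count in Coq10b itself. Among the other genes of the set, TGACG was in the window of Coq9 2 times. It was in those of Coq2, Coq6 and Coq7 1 time each, and CACGTG was in that of Coq4. Neither motif was in the windows of Coq3 and Pdss1, and Coq5 had no window. CCAAT was in the window of Coq6 3 times and in that of Coq7 2 times. CCGGAAG was in the window of Coq6 1 time and in that of Pdss1 2 times. The motifs were chosen after the sequences had been seen, and a match is a description of letters only.

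Among the other 9 genes, none was called by edgeR at an adjusted p below 0.05. This background was low in the whole table, with 0.155% of 19358 genes called lower and 0.47% called higher. At an unadjusted p below 0.05, edgeR gave Coq5 and Coq6, both lower (2 of 9, where 11.9% of all genes were lower at this p). DESeq2 called 1 of the 9, Coq5, lower and 0 higher, where it called 4.2% of the genes it tested lower and 5.69% higher. Limma-voom called 0 of the 9, where it called 0.77% of all genes lower and 1.28% higher. All 9 had a negative log2 fold change, from -0.59 to -0.02, as did 48.9% of all genes. The median was -0.24, beside 0.01 over all genes tested. The sign of Coq3 changed with the processing. The groups did not overlap, with Dp16 lower, in Coq5 and Coq6 (2 of 9, against 6.96% of all genes).

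Coq5 and Coq6 modify the ring, COQ5 by adding a methyl group to a carbon and COQ6 by hydroxylation. Coq5 (chromosome 5, 115279666 to 115296972, plus strand) was at 10.8, 12.6, 10.6 and 13.4 CPM in WT and at 9.14, 9.55, 8.81 and 9.30 in Dp16. The difference of -0.37 (SE 0.0967) had an edgeR adjusted p of 0.085 and a DESeq2 adjusted p of 0.0189. Coq6 (chromosome 12, 84361657 to 84373796, plus strand) was at 7.81, 9.77, 9.05 and 8.97 CPM in WT and at 6.13, 7.61, 6.51 and 7.66 in Dp16. In both genes the highest Dp16 library lay below the lowest WT library, for Coq6 by a narrow margin. The difference of Coq6 was -0.35 (SE 0.111, edgeR adjusted p = 0.114). Its DESeq2 adjusted p was 0.05 after rounding, at the threshold, and DESeq2 did not call it. The Dp16 level was 77.6% of WT for Coq5 and 78.4% for Coq6.

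The remaining ring enzymes did not separate the groups. Coq3, the O-methyltransferase, was at 9.21 ± 1.06 CPM in WT against 9.08 ± 1.35 in Dp16 (SD, n = 4), with a 95% confidence interval of the log2 fold change from -0.31 to 0.27 (edgeR adjusted p = 0.941). Coq7, the hydroxylase of the next-to-last step, was at 10, 14.2, 9.46 and 12.4 CPM in WT and at 7.96, 10.6, 7.18 and 12.1 in Dp16. Its difference was -0.28 (SE 0.191, edgeR adjusted p = 0.376). In Coq7, replicates 2 and 4 were the higher libraries of both groups. Coq9, a lipid-binding partner that COQ7 needs, was at 37.2 ± 2.26 CPM in WT against 32.8 ± 3.48 in Dp16 (-0.18, SE 0.0894, edgeR adjusted p = 0.235). Coq4, a member of the synthesis complex, was at 4.02 ± 0.31 and 3.41 ± 0.434 CPM (-0.24, SE 0.128, edgeR adjusted p = 0.282). The interval of Coq9 reached from -0.39 to 0.02 and that of Coq4 from -0.52 to 0.05, so the spread left room for falls of that size.

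The tail is made and attached by Pdss1 and Coq2. Pdss1, a subunit of the synthase that builds the isoprenoid tail, was at 4.14, 7.07, 2.86 and 7.45 CPM in WT and at 3.22, 4.69, 2.29 and 4.13 in Dp16. The groups overlapped, and replicates 2 and 4 were again the higher libraries of both. The difference of -0.59 was the second largest of the set in size but had the widest error (SE 0.325, 95% confidence interval -1.32 to 0.15, edgeR adjusted p = 0.29). Coq2, the transferase that joins the tail to the ring, was at 17.5, 18.2, 17.9 and 14.1 CPM in WT and at 16.3, 14.7, 15.9 and 15.6 in Dp16. Only WT replicate 4 lay below the Dp16 libraries. The difference was -0.12 (SE 0.0952, edgeR adjusted p = 0.463).

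**Figure D2:**
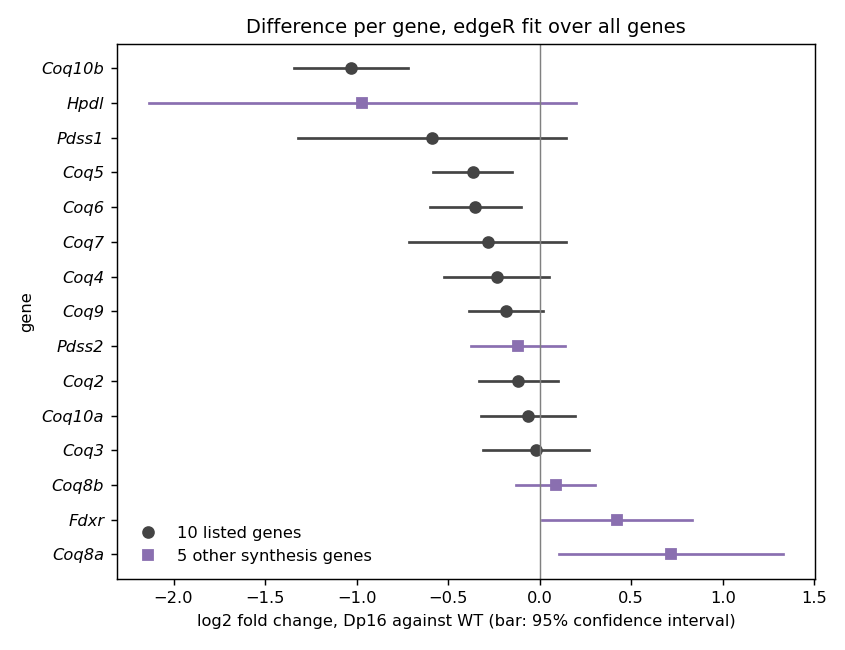
Log2 fold change of Dp16 against WT with its 95% confidence interval for the 10 genes of the set (circles) and for 5 other synthesis genes (squares). Coq10b lies at -1.03 and the other 9 between -0.59 and -0.02, while Coq8a (0.72) and Fdxr (0.42) lie on the other side of 0.

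Other genes of coenzyme Q synthesis, outside the 10, had values of both signs, with 2 of the 5 tested negative and 3 positive. Of 7 names, 6 were in the tables (Fdx2 is the newer name of Fdx1l) and 5 were tested. By edgeR 0 of the 5 were called, DESeq2 and limma-voom called 0 as well, and 2 were higher by edgeR at an unadjusted p below 0.05 (12.7% of all genes were). Coq8a, an atypical kinase-like ATPase that supports the synthesis complex, was at 15.2, 8.04, 12.6 and 6.16 CPM in WT and at 19.3, 13.4, 21 and 15.3 in Dp16. Its difference was 0.72 (SE 0.272, edgeR adjusted p = 0.158). Fdxr, the ferredoxin reductase of the electron supply to COQ6, was at 8.73, 5.79, 8.19 and 5.44 CPM in WT and at 9.19, 8.43, 11.8 and 8.33 in Dp16 (0.42, SE 0.182, edgeR adjusted p = 0.193). In both genes replicates 1 and 3 were the higher libraries of each group, the reverse of Pdss1 and Coq7, and the groups overlapped.

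Coq8b, the paralog of Coq8a, was at 6.08 ± 0.13 CPM in WT against 6.46 ± 0.581 in Dp16 (0.09, SE 0.0956, edgeR adjusted p = 0.59; SD, n = 4). Pdss2, the partner subunit of Pdss1, was at 7.32 ± 0.382 and 6.75 ± 0.925 CPM (-0.12, SE 0.114, edgeR adjusted p = 0.539). The 2 subunits of the tail synthase thus had estimates of -0.59 and -0.12, and the intervals of Pdss1 (-1.32 to 0.15) and Pdss2 (-0.37 to 0.14) overlapped. Hpdl, of the route to the ring precursor, was barely detected, with 6 to 70 reads per library (-0.97, SE 0.519, edgeR adjusted p = 0.273). Fdx1l, a ferredoxin, had 4 to 12 reads and was not tested.

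Levels can be compared between genes only per length, here as CPM per kb of annotated exon. In WT, Coq9 was highest of the 16 genes at 12.2 ± 0.739, then Coq2 at 6.45 ± 0.725 and Coq5 at 3.91 ± 0.446 (SD, n = 4). Coq10b was the fourth at 3.66 ± 0.643, with a range that overlapped those of Coq5 above it and Coq3 (3.07 ± 0.355) below it. From Coq5 down to Coq8b (1.09 ± 0.0232), each gene overlapped the next in its range over the WT libraries. In Dp16, Coq9 (10.7 ± 1.14) and Coq2 (5.94 ± 0.257) again led without overlap, and Coq10b was the ninth at 1.79 ± 0.152. It lay below Coq6 (2.22 ± 0.246), with ranges that narrowly did not overlap, and overlapped Coq7 (1.47 ± 0.356). The annotated exon length covers all isoforms, so these levels are approximate.

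**Figure D3:**
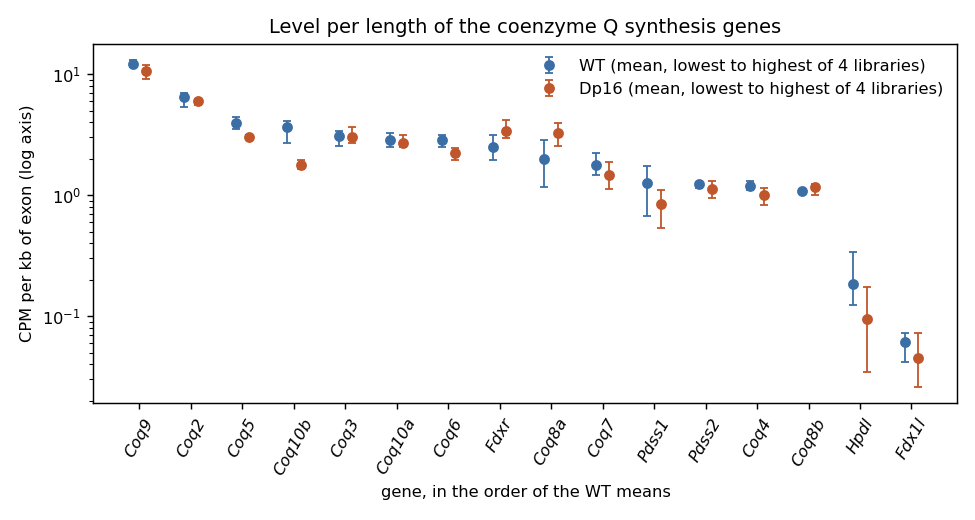
Mean level per length (CPM per kb of exon, log axis) of the 16 coenzyme Q synthesis and binding genes in WT and Dp16, in the order of the WT means, with bars from the lowest to the highest of 4 libraries. Coq10b is the fourth gene in WT at 3.66 and lies at 1.79 in Dp16, while Coq9 and Coq2 lead in both groups.

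The tissue and the depth bear on all of these values. Libraries held 90790542 to 115729892 reads in genes. Markers of acinar and granular duct cells were abundant in every library (summed CPM of at least 233000 and 43100), and skeletal muscle markers summed to 1.89 CPM or less. Of 10 marker lists, 3 had summed levels that did not overlap between the groups. Lymphocyte and natural killer markers (13 of 13 with a positive log2 fold change, 1 called by edgeR) summed to 224 to 317 CPM in WT and 350 to 531 in Dp16, endothelial markers (5 of 6 positive) to 45.7 to 56.1 and 57.1 to 66.6, and skeletal muscle markers (2 of 4 tested positive) to 1.35 to 1.89 and 0.982 to 1.16. Granular duct markers (0 of 7 positive, 1 called lower) summed to 76400 to 130000 CPM in WT and 43100 to 96000 in Dp16, and acinar markers (0 of 10 positive) to 265000 to 373000 and 233000 to 318000. Among all genes tested, 51.1% were positive, and edgeR called 0.47% higher and 0.155% lower. The 1 called lymphocyte or natural killer marker was higher in Dp16. Of the markers in these 5 lists, Kcnj1, of the granular duct list, was at 0 in every library, and Myh4, a muscle myosin, had 3 reads or fewer. Reads overlapping no counted feature took 13.8% to 15.9% of all reads in WT and 18.4% to 20.8% in Dp16. The part of these differences in the coenzyme Q results was not tested. In whole glands, fewer cells of a type and less RNA per cell cannot be told apart.

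Overlapping genes limit some members. Of the 10, 7 overlap an annotated gene on the opposite strand, and the strand setting of the counting is not given in the sources used here. For Coq10b, the opposite-strand gene E330011M16Rik had 0 to 17 reads per library and the pseudogene Gm17971, inside Coq10b on its own strand, had 15 to 57, against at least 846 for Coq10b. For Pdss1 the overlapping gene is Abi1, at a mean of 50.3 CPM, for Coq9 it is Ciapin1 at 18.1 CPM, for Coq4 Trub2 at 6.15 CPM and for Coq6 Fam161b at 1.31 CPM. The overlap was taken from the bounds of the genes, and shared exon bases were not measured. How far the levels of Pdss1, Coq9, Coq4 and Coq6 are affected is therefore not known. Coq10a, Coq3 and Coq7 overlap no annotated gene.

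The neighbours of Coq10b on chromosome 1 were compared to see whether the region as a whole was lower. Coq10b ends 5133 bases from Hspd1, which is read toward it and shares its start region with Hspe1. These genes encode the mitochondrial chaperonin and its partner. Hspd1 was at 59.9, 98.7, 65.5 and 100 CPM in WT and at 51.4, 79.0, 48.4 and 70.1 in Dp16, with overlapping groups (-0.38, SE 0.214, edgeR adjusted p = 0.294). Hspe1 had -0.43 (SE 0.238, edgeR adjusted p = 0.287). As in Pdss1 and Coq7, replicates 2 and 4 were the higher libraries of both groups in Hspd1. Mob4, a cofactor of kinase complexes, was at 50.9 ± 1.81 CPM in WT against 41.5 ± 2.74 in Dp16 with no overlap (-0.30, SE 0.0685, edgeR adjusted p = 0.0711).

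On the other side the values differed in sign. Sf3b1, a splicing factor subunit 25289 bases before Coq10b, was at 192 ± 4.64 CPM in WT against 189 ± 8.91 in Dp16, and its interval bounds a change to between -0.19 and 0.14 (log2 fold change -0.02, edgeR adjusted p = 0.854). Ankrd44 had 0.91 (SE 0.211, edgeR adjusted p = 0.0714) and A130048G24Rik, an unclassified transcript inside Ankrd44, had 1.00 (SE 0.186, edgeR adjusted p = 0.0532). Gm17971, the pseudogene within Coq10b, had -0.46 (SE 0.377, edgeR adjusted p = 0.471). None of these 7 genes was called by edgeR.

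**Figure D4:**
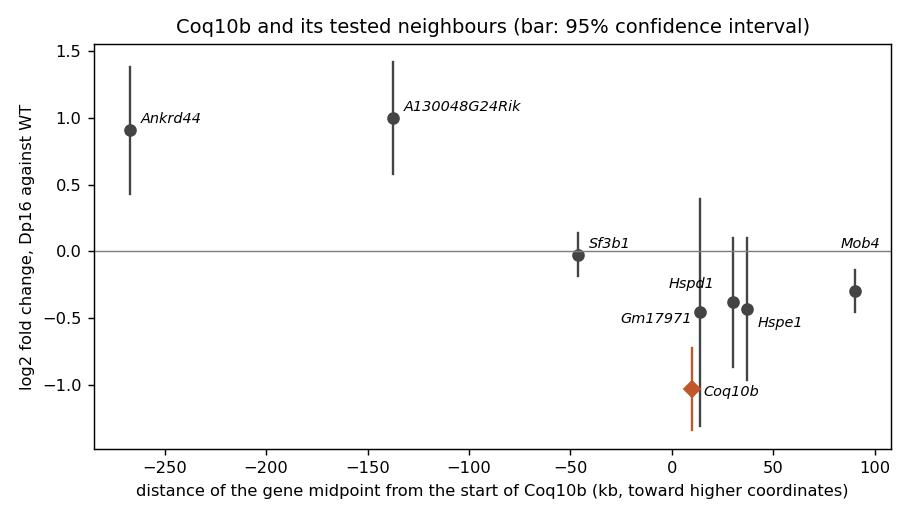
Log2 fold change of Dp16 against WT, with its 95% confidence interval, of Coq10b (diamond) and the 7 neighbouring or overlapping genes tested (circles), by distance of the gene midpoint from the start of Coq10b in kb. Sf3b1 lies at -0.02 and Hspd1 at -0.38, on either side of Coq10b at -1.03.

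The steps before and after coenzyme Q synthesis were described through lists of genes. In the mevalonate route, which supplies the isoprenoid units, 9 of 9 genes had negative values (48.9% of all genes did) with a median of -0.25, and edgeR called 0. At an unadjusted p below 0.05, edgeR gave 2 of 9 lower, where 11.9% of all genes were. DESeq2 called 1 of 9 lower, beside 4.2% of all genes it tested, and limma-voom 0, beside 0.77%. Acat2, of the first step, had -0.24 (SE 0.106, edgeR adjusted p = 0.198).

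Enzymes that pass electrons to coenzyme Q were negative in 9 of 11 cases with a median of -0.10. By edgeR 0 were called, and at an unadjusted p below 0.05, 3 of 11 were lower (11.9% of all genes) and 1 of 11 higher (12.7%). DESeq2 called 1 of 11 lower (4.2% of all genes) and limma-voom 0 (0.77%), so the higher genes and the DESeq2 call are near the shares over all genes. Sdhb, the iron-sulfur subunit of complex II, was at 73.9, 83.1, 75.4 and 71.5 CPM in WT and at 54.5, 56.4, 48.4 and 67.8 in Dp16 (-0.42, SE 0.105, edgeR adjusted p = 0.0792). All 4 Dp16 libraries lay below the WT libraries. Prodh, proline dehydrogenase, was at 0.813 ± 0.103 CPM in WT against 1.37 ± 0.555 in Dp16, with overlapping groups (0.76, SE 0.299, edgeR adjusted p = 0.169). It lies on chromosome 16, outside the duplicated part.

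Complex III, which takes electrons from coenzyme Q, had 9 of 9 listed nuclear subunit genes negative (48.9% of all genes) with a median of -0.31. By edgeR 0 were called and 5 of 9 were lower at an unadjusted p below 0.05, beside 11.9% of all genes. DESeq2 called 2 of 9 lower (4.2% of all genes) and limma-voom 0 (0.77%). Cyc1, cytochrome c1, was at 48.4, 67.1, 44.0 and 57.0 CPM in WT and at 33.3, 43.2, 25.2 and 37.3 in Dp16 (-0.64, SE 0.178, edgeR adjusted p = 0.0931), with Dp16 replicate 2 just below WT replicate 3. Uqcr10, a small subunit, had -0.43 (SE 0.126, edgeR adjusted p = 0.103). The complex III subunit gene mt-Cytb is not among these 9 and is counted with the mitochondrially encoded genes. It had -0.37 (SE 0.136, edgeR adjusted p = 0.151), with Dp16 lower and no overlap. Of 13 mitochondrially encoded genes 9 were tested, and 6 of these were negative, with a median of -0.18. Of the positive ones, mt-Co2 (0.0835 CPM in WT and 0.105 in Dp16) and mt-Co3 (0.138 and 0.161) were barely counted, so their signs carry little, while mt-Co1 was at 3310 and 2960 CPM. By edgeR 0 of these were called, and at an unadjusted p below 0.05, 3 of 9 were lower (11.9% of all genes) and 1 of 9 higher (12.7%). DESeq2 and limma-voom called 1 each lower (4.2% and 0.77% of all genes). The complex I subunit genes mt-Nd4 (-0.42, SE 0.096, edgeR adjusted p = 0.071) and mt-Nd6 (0.33, SE 0.1, edgeR adjusted p = 0.11) had opposite signs, each without overlap. Of all genes, 6.96% were lower without overlap and 7.11% higher without overlap. The gene mt-Nd6 is read from the other strand of the circle and overlaps mt-Nd5. Reductases of coenzyme Q outside the respiratory chain had 3 of 3 positive values (51.1% of all genes did), and edgeR, DESeq2 and limma-voom called 0. Cyb5r3 had 0.19 (SE 0.0823, edgeR adjusted p = 0.192) and was the 1 of 3 higher by edgeR at an unadjusted p below 0.05 (12.7% of all genes). Aifm2, which reduces coenzyme Q at the plasma membrane, had 0.14 (SE 0.0969, edgeR adjusted p = 0.4).

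Genes with the library profile most like that of Coq10b were found by the root mean square difference in log2 CPM over the 8 libraries, each gene minus its own mean. Of 13532 genes whose mean log2 CPM was 0 or more, the nearest were Tmem120b (0.143), Ppan (0.153), Siah2 (0.164), Pprc1 (0.164) and Csrnp1 (0.176), beside a median of 0.55 over all genes compared. Ppan acts in ribosome assembly, Siah2 is a ubiquitin ligase, Pprc1 is a coactivator of the PGC-1 family and Csrnp1 is an immediate early nuclear protein. Pprc1 was at 12.3, 23.3, 19.7 and 21.2 CPM in WT and at 9.98, 8.72, 11.1 and 10.5 in Dp16. It shared with Coq10b a low WT replicate 1. Among the other 9 genes of the set, Coq5 and Coq6 were nearest to Coq10b, both at 0.371, and Coq3 was farthest at 0.569. A gene near Coq10b by this measure is lower in Dp16 by construction, so no test is given.

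Because immediate early and heat shock genes respond to handling of tissue as well as to physiology, their levels are given beside Coq10b. Of 23 immediate early genes, 22 had negative values (48.9% of all genes did) with a median of -0.70. By edgeR 1 was called, Csrnp1, lower (7.61 ± 1.01 CPM for WT against 3.87 ± 0.709 for Dp16, SD, n = 4, -0.97, SE 0.157, edgeR adjusted p = 0.0396). Over all genes edgeR called 0.155% lower. At an unadjusted p below 0.05, edgeR gave 15 of the 23 lower (11.9% of all genes) and 1 higher (12.7%). In 9 of the 23 the groups did not overlap, with Dp16 lower (6.96% of all genes). DESeq2 called 13 of the 23 lower (4.2% of all genes) and limma-voom 3 (0.77%). The edgeR count in the list was 4 without Dp16 replicate 2 and 0 when any one of the other 7 libraries was left out. The share of all genes called lower was 0.467% without Dp16 replicate 2. It was 0% to 0.126% in the other 7 fits, so few calls were possible there. Heat shock chaperones had 14 of 14 negative (48.9% of all genes) with a median of -0.39. By edgeR 0 were called and 6 of 14 were lower at an unadjusted p below 0.05, beside 11.9% of all genes. DESeq2 called 5 of 14 lower (4.2% of all genes) and limma-voom 2 (0.77%). Dnaja1 had -0.50 (SE 0.11, edgeR adjusted p = 0.0685) and Dnajb1 -0.41 (SE 0.0924, edgeR adjusted p = 0.0709).

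The libraries did not order these lists in the same way. The mean log2 CPM of the immediate early list, relative to the WT mean, was 0.13, 0.02, 0.27 and -0.42 in the WT libraries and -0.68, -1.21, -0.55 and -0.85 in the Dp16 libraries. WT replicate 1, the lowest WT library for Coq10b, was not low for this list. Dp16 replicate 2, at -1.09 for Coq10b, was the lowest library of this list. The heat shock list was at -0.24, 0.08, -0.07 and 0.23 in WT and at -0.58, -0.09, -0.47 and -0.48 in Dp16. WT replicate 1 was the lowest WT library of the heat shock list, as it was for Coq10b. Dp16 replicate 2 lay within the WT range of the heat shock list, while Coq10b was low in that library. The mean of the 9 other coenzyme Q genes was at -0.06, 0.15, -0.14 and 0.05 in WT and at -0.28, -0.07, -0.45 and -0.16 in Dp16, with Dp16 replicate 2 inside the WT range. The part of handling or of these responses in the level of Coq10b was not tested.

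**Figure D5:**
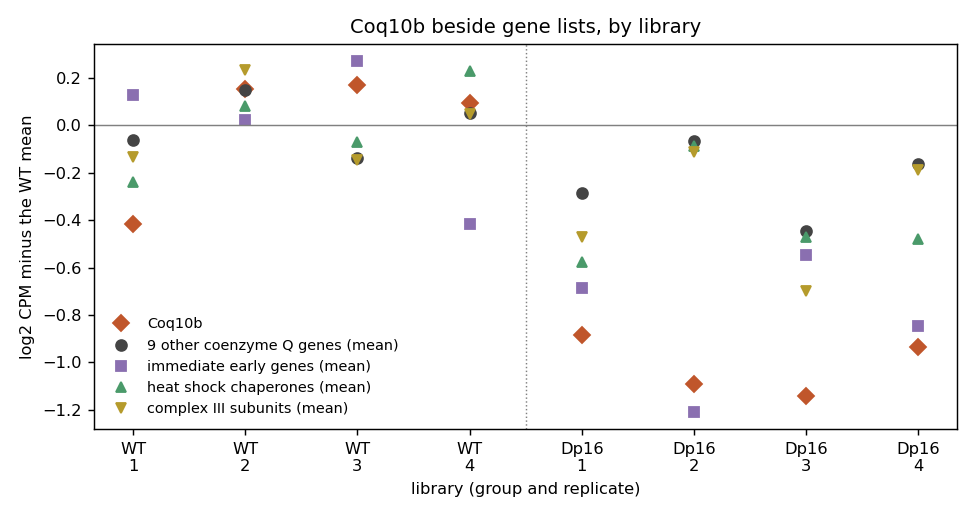
Log2 CPM minus the WT mean in each library for Coq10b, for the mean of the 9 other coenzyme Q genes and for the means of 3 gene lists (immediate early, heat shock, complex III). Coq10b is between -1.14 and -0.89 in the Dp16 libraries, and the 9 other genes are between -0.45 and -0.07 there.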

How the data were processed

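RNA of submandibular glands from 4 WT and 4 Dp16 libraries was sequenced. The deposited values are raw read counts per Ensembl gene, 1 table per library. FastQC, STAR, HTSeq and DESeq2, with the build GRCm38, are listed without roles in the submitters' processing notes. Versions, annotation release and strand setting: not given in the sources used here. The 5 rows that name no gene (58.1% to 65.4% of reads, mostly reads with several alignments) were left out. Names and positions came from GENCODE M21, which matched 54809 of 54838 genes.

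Counts were fitted in R 4.3.3 with edgeR 4.0.16 (default expression filter, TMM, quasi-likelihood F-test, genotype only), two-sided, with Benjamini-Hochberg adjustment over all 19358 genes and a threshold of 0.05. Log2 CPM used a prior count of 2. Alternatives used DESeq2 1.42.0, limma-voom (limma 3.58.1), other size factors and filters, the replicate number as a block, and each library left out. The fits were tested on simulated data. Replicate libraries differed by more than sampling noise (chi-square per degree of freedom at least 78.4).

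The members and lists were chosen with earlier results of these data known. Named genes were all members and other synthesis genes, the 3 nearest tested neighbours on each side of Coq10b, the called genes or else the 2 of smallest p in each other list, and the 5 profiles nearest to Coq10b. A single gene that this rule names is not reported here.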

Additional observations from a re-analysis of the deposited data

Results flagged for a closer look

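In 44 groups of 4 libraries, covering the coenzyme Q genes and the neighbours of Coq10b, 3 had a library set apart from the rest by a gap that was large against the range of the group. Chance gives about 1 in 20 groups. Coq10b was at 13 CPM in WT replicate 1, below the other WT libraries. Coq2 was at 14.1 CPM in WT replicate 4, below the other WT libraries. Hpdl was at 0.607 CPM in WT replicate 4, above the other WT libraries.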

How the results depend on the processing

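The log2 fold change of Coq10b was -1.04 to -0.99 under the other tools, size factors, filters and the replicate block, and -1.16 to -0.98 with 1 library left out. Without 1 library the median of the 9 other genes was -0.30 to -0.15, and 0 of them were called in either direction. In these fits edgeR called 0% to 0.467% of all genes lower and 0% to 1.8% higher, so a count of 0 says little. The 9 others had 1 called lower by DESeq2 and 1 by edgeR at an adjusted p below 0.10, Coq5 in both cases. The edgeR share at 0.10 was 2.9% of all genes called lower. Coq3 ranged from -0.13 to 0.037 without 1 library and turned to 0.01 with CPM of at least 1 in 4 libraries, 0.03 without WT replicate 2, 0.037 without Dp16 replicate 3 and 0.01 without Dp16 replicate 4, and the cause was not tested.

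Lower calls by DESeq2 were 1 in the mevalonate list, 1 in the enzymes that reduce coenzyme Q, 2 in complex III, 1 in the mitochondrially encoded genes, 5 in the heat shock list and 13 in the immediate early list. With edgeR at an adjusted p below 0.10, lower calls in these lists were 1, 1, 1, 1, 4 and 11. Over all genes, edgeR called 2.9% lower at that threshold. Limma-voom gave 1 mitochondrially encoded, 2 heat shock and 3 immediate early genes, and no expression filter gave 4 immediate early genes. Without 1 library the calls were 0 to 1 in complex III (1 without Dp16 replicate 2), 0 to 2 in the heat shock list (2 without that library) and 0 to 4 in the immediate early list. The share of all genes called lower was 0.467% without Dp16 replicate 2 and 0% to 0.126% in the other fits without 1 library.

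The replicate block gave 1 higher call among the other synthesis genes (Coq8a, 0.78, edgeR adjusted p = 0.0486), and 2 lower in complex III, 2 mitochondrially encoded, 6 heat shock and 7 immediate early. Pdss1 and Coq7 were not called with the block, but their errors were smaller. Pdss1 had -0.534 (SE 0.128, edgeR adjusted p = 0.0624) and Coq7 -0.295 (SE 0.0945, edgeR adjusted p = 0.103). The error of Coq10a was larger with the block (SE 0.128). In the labels, same-numbered libraries share only a number. Their deviations from the group means correlated at 0.0777 to 0.191, over 0.1 in 3 of 4 pairs. Of 8 libraries, 4 correlated best with their own number. Whether same-numbered libraries shared anything else was not tested. Over all genes, 30 were called lower and 91 higher. The counts were 844 and 1143 by DESeq2, 149 and 247 by limma-voom, 65 and 158 with no expression filter, 416 and 360 with the replicate block, and 0 to 92 and 0 to 354 without 1 library. Among the coenzyme Q synthesis genes, depth limits Hpdl and Fdx1l most.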
